A study of Mus musculus with 9 samples.

Results

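Acetylated histone H3 (AcH3) was compared between 3T3-L1 cells given an siRNA against the malic enzyme ME1 and cells given a negative control siRNA. The comparison rests on 2 of the 9 chromatin immunoprecipitation sequencing (ChIP-seq) libraries of the study, taken by their antibody and siRNA labels. The siControl library listed 21995 AcH3 regions and the siME1 library 34799, out of 203782 regions over all 9 libraries. 3T3-L1 is a mouse preadipocyte line that turns into fat cells when induced. Both cultures were transfected 2 days before induction and fixed with 1% formaldehyde at 7 days after it, and the chromatin was sheared to 200 to 1000 bp. They differed only in the siRNA, as far as the labels say. The antibody was raised against acetylated H3, and the labels name no lysine. The other libraries used an ME2 siRNA, an acetylated H2B (AcH2B) antibody or an HDAC3 antibody, and the AcH2B and HDAC3 libraries of the same siRNAs are used below as separate readouts. There was 1 library on each side, so every difference describes these libraries, no spread between cultures is known and no test was made.

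Acetyl groups are placed on histone tails by acetyltransferases, which take them from acetyl-CoA, and removed by histone deacetylases. Acetylated H3 sits around the starts of active genes and at active enhancers, where it opens chromatin and is read by bromodomain proteins. ME1 turns malate into pyruvate in the cytosol and makes NADPH, which fat cells spend on fatty acid synthesis. Among the deacetylases, HDAC3 works within corepressor complexes that contain NCoR.

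A region is a stretch called as enriched in a library, and its pileup is the highest number of overlapping fragments in it. Pileups were divided by the genome background of their library, so a normalised pileup of 10.8 means 10.8 times the background. The background was 1.763 in siControl and 2.109 in siME1. The median normalised pileup of all regions was 10.8 in siControl and 7.81 in siME1, and the lowest listed values were 4.54 and 3.91. A region absent from a list lay below that list's limit, which is not the same as no acetylation.

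The cell type label reads preadipocytes, while the protocol describes cells at day 7 of differentiation. Of 34 adipocyte genes, 22 were marked by AcH3 in siControl, among them Pparg, Cebpa, Fasn, Lpl and Plin4. No region lay within 10 kb of Adipoq, Fabp4, Cd36, Lep, Retn, Cfd, Slc2a4, Pck1 or Klf15 in either library. Of 24 preadipocyte and fibroblast genes, 20 were marked in siControl. Marks were listed at 0 of 20 neuronal, 1 of 19 hepatocyte, 2 of 20 skeletal muscle, 2 of 19 leukocyte, 1 of 15 endothelial and 1 of 15 bone and cartilage genes in siControl. In siME1 these counts were 0, 0, 0, 1, 0 and 1.

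AcH3 pileup relative to the background of each library was lower at gene starts in siME1, and listed regions away from starts were more numerous. To show the kinds of promoter involved, 200 bases upstream of the start are printed for 6 genes, from RefSeq on GRCm38.p6. They come from 8 named genes, the first 1 or 2 of each class whose bases here touch no annotated gene. The other two, Slc25a22 (lost) and Fgf10 (narrowed), are not printed. Ttc1 (chr11:43748009-43748208, minus strand) had its AcH3 mark in siControl only. Wdr70 (chr15:8099210-8099409, minus strand) and Ryk (chr9:102834720-102834919, plus strand) kept it with among the lowest ratios of siME1 to siControl. Aebp1 (chr11:5861666-5861865, plus strand) had among the highest ratios. Fam180a (chr6:35326142-35326341, minus strand) and Ccl9 (chr11:83578637-83578836, minus strand) were marked in siME1 only. Each runs 5′ to 3′ and ends at the base before the start, with CG dinucleotides in capitals.
Ttc1: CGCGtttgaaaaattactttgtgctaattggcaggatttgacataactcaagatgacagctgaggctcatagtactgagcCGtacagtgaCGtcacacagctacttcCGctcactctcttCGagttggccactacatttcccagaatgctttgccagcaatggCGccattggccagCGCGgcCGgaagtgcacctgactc
Wdr70: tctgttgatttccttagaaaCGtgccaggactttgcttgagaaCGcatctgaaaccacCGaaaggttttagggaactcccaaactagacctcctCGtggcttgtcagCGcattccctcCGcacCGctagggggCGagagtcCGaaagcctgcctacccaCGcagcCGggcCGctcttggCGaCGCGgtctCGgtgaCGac
Ryk: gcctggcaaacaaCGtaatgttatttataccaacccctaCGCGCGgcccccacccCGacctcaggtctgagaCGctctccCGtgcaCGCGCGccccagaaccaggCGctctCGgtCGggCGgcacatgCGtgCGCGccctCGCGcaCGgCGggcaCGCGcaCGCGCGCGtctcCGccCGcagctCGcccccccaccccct
Aebp1: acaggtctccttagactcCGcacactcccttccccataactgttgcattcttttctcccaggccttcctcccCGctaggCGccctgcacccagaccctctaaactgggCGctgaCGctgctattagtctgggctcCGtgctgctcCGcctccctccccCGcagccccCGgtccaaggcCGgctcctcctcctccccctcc
Fam180a: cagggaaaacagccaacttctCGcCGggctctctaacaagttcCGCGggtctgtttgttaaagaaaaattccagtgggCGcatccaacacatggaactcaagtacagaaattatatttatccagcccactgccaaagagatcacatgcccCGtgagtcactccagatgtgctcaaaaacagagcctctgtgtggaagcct
Ccl9: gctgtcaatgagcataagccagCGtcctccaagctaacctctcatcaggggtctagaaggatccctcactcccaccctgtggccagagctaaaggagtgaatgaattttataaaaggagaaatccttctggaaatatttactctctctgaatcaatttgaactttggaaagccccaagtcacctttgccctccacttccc
The printed bases hold 17 CG dinucleotides for Wdr70, 30 for Ryk, 10 for Ttc1, 10 for Aebp1, 6 for Fam180a and 1 for Ccl9. The same stretch holds 3 for Slc25a22 and 5 for Fgf10, so the numbers did not sort the genes by class.

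Of the siControl regions, 6366 (28.9%, 95% interval 28.3% to 29.5%) overlapped no siME1 region by even 1 bp and are called lost. The share of all siControl regions called lost is the background for the counts that follow. The other 15629 regions were shared. Of the siME1 regions, 17646 (50.7%, 50.2% to 51.2%) overlapped no siControl region and are called gained. Shares carry Wilson intervals, which reflect counting error alone. The regions held 12.1 Mb in common, with 8.52 Mb in siControl alone and 11.6 Mb in siME1 alone.

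Lost and gained regions were narrow and low. Lost regions had a median width of 374 bp and a median normalised pileup of 7.37, against 962 bp and 14.2 for shared siControl regions. Gained regions had a median width of 407 bp and a median normalised pileup of 6.95. Of siControl regions in the lowest decile of pileup, 60.4% were lost, and in the highest decile 1.14% were. Of siME1 regions, 79.5% in the lowest decile and 6.58% in the highest decile were gained. Of the 6366 lost regions, 3756 had a normalised pileup under 8, near the limit of the list.

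**Figure D1:**
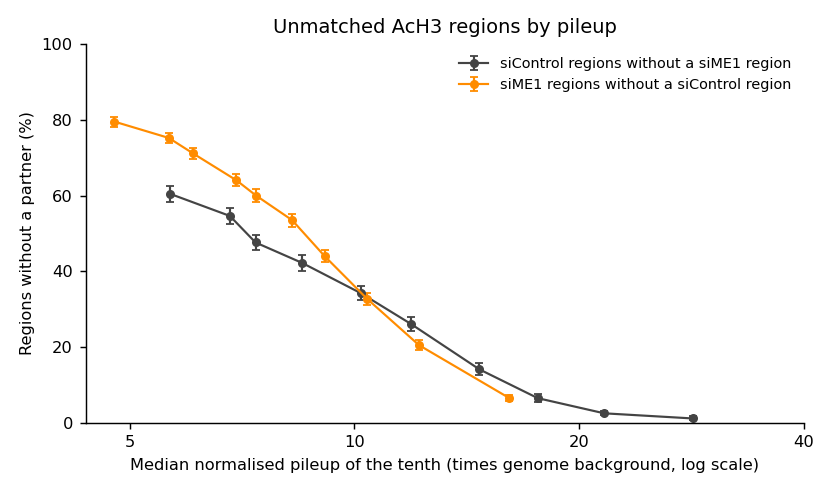
Percent of AcH3 regions without an overlapping region in the other list (vertical axis) against the median normalised pileup of each decile of regions (horizontal axis, log scale), for siControl and siME1. Bars are Wilson 95% intervals. The share falls from 60.4% to 1.14% in siControl and from 79.5% to 6.58% in siME1 as pileup rises.

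The balance between the libraries depended on place. Within 1 kb of a gene start there were 11882 regions in siControl and 11147 in siME1. For 4405 genes whose start was not known, either end counts as a start here and below. Inside genes there were 5523 and 10876, which is 1.97 times as many in siME1. Between genes there were 4133 and 12269, which is 2.97 times as many. Gene starts held 3.43% of the gained regions and 42.2% of the lost regions, against 54.0% of all siControl and 32.0% of all siME1 regions. Of siME1 regions at starts 5.44% were gained, against 67.6% inside genes and 77.3% between genes. Of siControl regions, 22.6% were lost at starts, 40.8% inside genes and 30.1% between genes. The gained regions lay a median of 14108 bp from the nearest siControl region, and 11.6% lay within 500 bp of it. Their median distance to a gene start was 38860 bp, and 42.9% lay over 50 kb away.

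Pileup over shared regions also differed by place. Over all shared regions the median normalised pileup was 14.2 in siControl and 9.99 in siME1, with a median ratio of 0.699 (quartiles 0.532 and 1.04). The ratio was lower by 1.5 times or more in 46.2% of shared regions and higher by as much in 9.46%. At gene starts the medians were 18.2 and 10.4 and the median ratio was 0.581. There 6289 of 9195 regions (68.4%) were lower and 116 (1.26%) higher. Inside genes the medians were 8.51 and 9.55, and the median ratio was 1.05. Between genes they were 8.51 and 10.4, and the median ratio was 1.15, with 10.4% of regions lower and 24.5% higher. With overlapping regions joined to 1 locus, the median ratio inside genes was 0.990, on the other side of 1, and between genes it was 1.08.

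**Figure D2:**
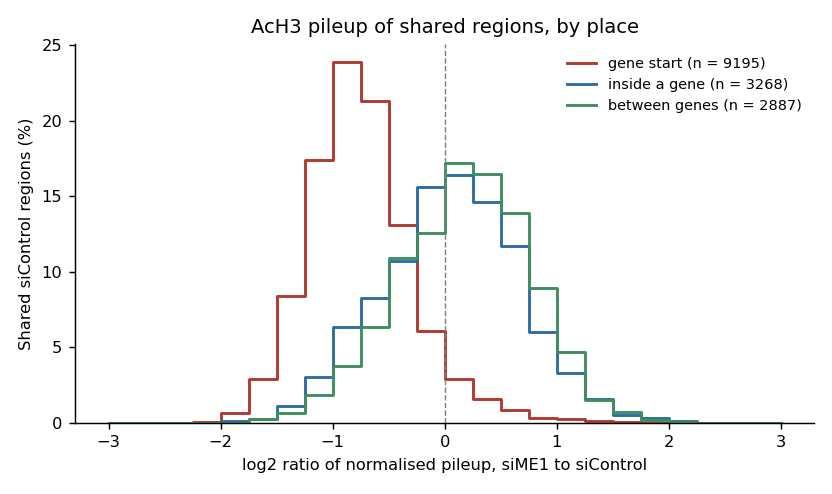
Distribution of the log2 ratio of normalised pileup, siME1 to siControl, over shared AcH3 regions at gene starts, inside genes and between genes (percent of regions per bin of 0.25). The curve for gene starts lies left of 0, with a median ratio of 0.581, and the other curves are centred near 0, with median ratios of 1.05 and 1.15.

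Regions at gene starts had higher siControl pileups than other regions, and ratios were lower where siControl pileup was higher. At equal siControl pileup the places still differed in these libraries. Among regions with a normalised pileup of 12 to 16 in siControl, the median ratio was 0.599 at starts, 0.765 inside genes and 0.898 between genes. Above 24 it was 0.534, 0.605 and 0.657. Below 8 it was 1.06, 1.28 and 1.36, in regions that count as shared only if siME1 also listed them. Grouped by siME1 pileup instead, the ratio at starts ran the other way, from 0.452 under 8 to 0.728 over 24, so its order with pileup depends on which library sets the groups. The order of places held there too in these libraries: for a siME1 pileup of 8 to 12 the median ratio was 0.543 at starts, 1.00 inside genes and 1.12 between genes. The median ratio at starts ranged from 0.557 on chromosome 5 to 0.647 on chromosome X. Between genes it lay above 1 on all chromosomes but X, where it was 0.888.

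Widths of shared regions differed in both directions. The siME1 width over a shared region, relative to its siControl width, had a median of 0.854 (quartiles 0.612 and 1.43). It was below 1 in 60.9% of shared regions. Of the 15629, 3210 (20.5%, 19.9% to 21.2%) were narrowed, meaning that siME1 regions covered less than 50% of their bases. This counts covered bases and not width, so a narrowed region can lie under a wider siME1 region. At starts 24.7% of shared regions were narrowed, against 12.2% between genes. All regions at starts had a median width of 1095 bp in siControl and 647 bp in siME1. Inside genes the widths were 405 and 456 bp. In siME1, 2492 shared regions (15.9%) were split into several regions, and among start regions wider than 2000 bp this share was 48.6%. Wide start regions were rarely lost: 5 of 1601 over 2000 bp (0.312%), against 1343 of 2039 under 500 bp (65.9%). Conversely 3729 shared regions (23.9%) were widened by 1.5 times or more. These had a median siControl width of 389 bp and lay a median of 17488 bp from a gene start.

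Around gene starts the profile of AcH3 regions was lower in siME1 on both sides close to the start. It was drawn over 5759 starts marked in either library, with no other start within 5 kb. Some of these were marked in siControl alone, so lost marks lower the siME1 profile as well as narrowing. At 200 bp downstream of the start, 93.3% of these starts were covered by a siControl region and 72.7% by a siME1 region. At the start itself the shares were 78.9% and 44.5%. At 500 bp upstream they were 47.0% and 32.0%, and at 1000 bp downstream 48.4% and 23.0%. The siME1 share relative to siControl was thus 0.779 at 200 bp downstream, 0.563 at the start and 0.475 at 1000 bp downstream. At 2000 bp upstream the shares were 2.10% and 2.48%. Over the 4852 starts marked in siME1, chosen with no regard to siControl, siME1 still covered fewer starts at the start itself (52.4% against 82.3%) and at 1000 bp downstream (26.3% against 54.0%).

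**Figure D3:**
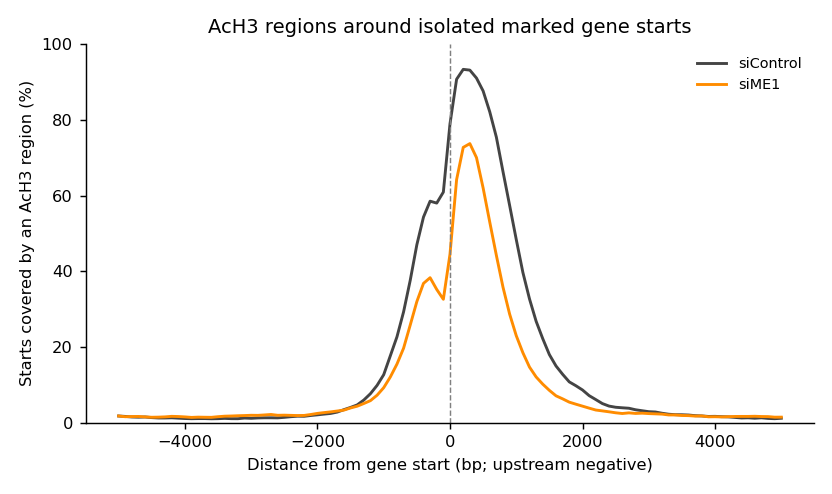
Percent of 5759 isolated gene starts marked in either library that were covered by an AcH3 region (vertical axis) at each distance from the start in bp (horizontal axis, upstream negative), in siControl and siME1. Both lines peak downstream of the start, reaching 93.3% and 72.7% at 200 bp, and siME1 dips to 32.6% at 100 bp upstream.

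The single regions of highest score in each class were also listed. The lost region of highest score lay inside Ccser2, 258 bp from its start (chr14:36967843-36968819), with a normalised pileup of 27.2 in siControl. The next, 297 bp from the start of Gfod2 (chr8:105757552-105759387), had 28.9. All 5 lost regions of highest score lay at gene starts, the others at Leng1, Ttc1 and Plcb3. They were picked by siControl score, and 88.0% of regions in the highest decile of siControl pileup lay at starts. Of 26 lost regions with a normalised pileup over 24, 10 lay at starts, 10 inside genes and 6 between genes. The 5 gained regions of highest score lay away from starts. The strongest (chr11:75047438-75050951) was 3514 bp wide inside Smg6, a nonsense-mediated decay nuclease gene, with 18.7 in siME1. The strongest between genes (chr6:129216586-129217790) had 20.8 and lay 36441 bp from the start of Clec2d. Each of the 5 carried an AcH2B region in both libraries. The narrowed regions of highest score lay at the starts of Pum2, Hnrnpu, Csk, Hmgxb4 and Rpl3. At Pum2, an RNA-binding repressor gene, the pileup was 42.0 in siControl and 21.3 in siME1, which covered 44.6% of the region.

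AcH2B, measured in separate immunoprecipitations, divided the classes of AcH3 region. In siControl, AcH2B regions overlapped 43.8% of kept broad AcH3 regions (shared and not narrowed), 15.5% of narrowed and 9.28% of lost regions. They overlapped 6642 of the gained regions (37.6%, 36.9% to 38.4%), where no AcH3 region was listed in siControl. The share was 29.7% over all siControl and 35.7% over all siME1 AcH3 regions, near that of gained regions. Gained regions carried AcH2B less often than shared siME1 regions between genes (42.5% against 70.4%) and inside genes (32.2% against 52.8%). At starts they carried it more often (27.9% against 17.3%). In siME1, AcH2B regions overlapped 78.8% of kept broad, 45.7% of narrowed, 22.6% of lost and 79.9% of gained regions. Over all siControl and all siME1 AcH3 regions these shares were 57.7% and 73.7%. By place, gained regions again carried AcH2B less often than shared siME1 regions between genes (82.4% against 89.2%) and inside genes (77.2% against 83.0%). At starts they carried it more often (71.3% against 56.0%). The siME1 AcH2B list was also longer, with 54649 regions against 20046. Of the gained AcH3 regions, 6392 carried AcH2B in both libraries, 7702 in siME1 alone and 3302 in neither. HDAC3 regions overlapped few AcH3 regions, with 10.4% of kept broad, 4.64% of narrowed, 1.40% of lost and 1.81% of gained regions in siControl. Over all siControl and all siME1 AcH3 regions the shares were 6.97% and 5.12%. In siME1, HDAC3 regions overlapped 5.98%, 2.87%, 0.927% and 1.37% of the same classes, against 4.06% and 3.16% of all. The HDAC3 lists had a looser limit, with −log10 q-values down to 0.00, against 1.31 in the AcH3 lists. Their median widths were 229 bp in siControl and 215 bp in siME1. The HDAC3 libraries are titled H3, and were taken as HDAC3 from their antibody label.

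**Figure D4:**
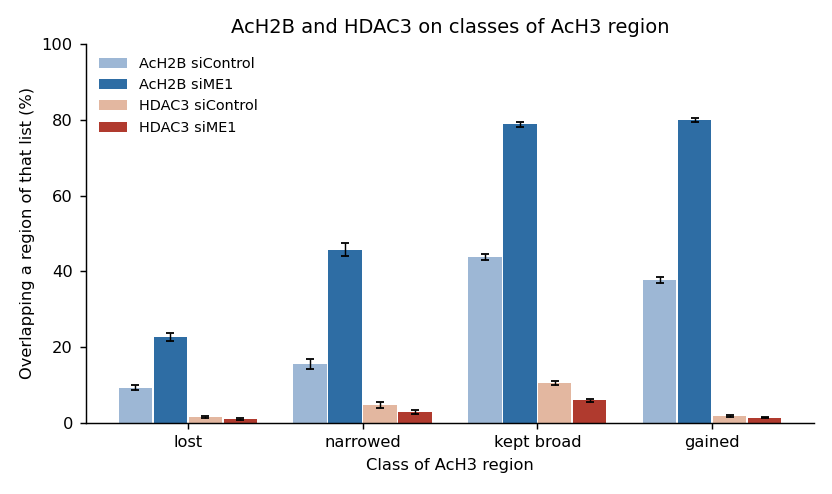
Percent of lost, narrowed, kept broad and gained AcH3 regions (horizontal axis) that overlap a region of the AcH2B or HDAC3 lists of siControl and siME1 (bars, with Wilson 95% intervals). Gained regions carried AcH2B at 37.6% in siControl and 79.9% in siME1, and lost regions at 9.28% and 22.6%. All siME1 AcH3 regions carried it at 35.7% and 73.7%, and all siControl AcH3 regions at 29.7% and 57.7%.

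AcH3 regions that carried AcH2B in siControl kept more of their AcH3 in siME1. At gene starts 2.77% of those with AcH2B were lost, against 26.3% of those without it. Between genes 11.8% and 53.9% were lost, and inside genes 11.9% and 59.5%. The median ratio at starts was 0.656 with AcH2B and 0.564 without. Between genes it was 1.26 and 0.877, on either side of 1. The difference was seen at like siControl pileup too: for a pileup of 16 to 24 the median ratio at starts was 0.651 with AcH2B and 0.523 without. Between genes it was 0.807 and 0.526 there. Regions with AcH2B at starts had higher AcH3 in siControl, with a median of 22.7 against 17.6.

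A gene was called marked where the summit of an AcH3 region lay within 1 kb of its start, or of either end where the start was not known. In siControl 10467 of 21896 protein-coding genes were marked, and in siME1 9227. Of those marked in siControl, 1398 (13.4%) had lost the mark in siME1. A gene kept its mark where a siME1 region overlapped its siControl region, even if the siME1 summit lay beyond 1 kb, so a kept gene need not count as marked in siME1. Of the 11429 not marked in siControl, 190 (1.66%) had gained one. Among the 9069 genes that kept the mark, 6795 (74.9%) were lower by 1.5 times or more and 19 (0.210%) higher. The median normalised pileup of kept genes was 19.3 in siControl and 10.4 in siME1, and the median ratio was 0.560. The value in siME1 lay below that in siControl at 8847 of them. An exact 95% interval of the ratio, from fragment counts, lay below 1 for 4920 genes and above 1 for 4. These counts and intervals rest on division by the genome background and were not retaken under other scalings. Over shared regions at starts, the lower share was 68.4% with that division and 44.4% with undivided pileups. It was 21.1% when centred on the median of shared regions. The strongest region was narrowed at 2243 kept genes (24.7%). Lost genes had a median siControl pileup of 10.8, and 1.29% of them carried AcH2B in siControl, against 19.8% of kept and 35.8% of gained genes.

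Me1 itself, the target of the siRNA, kept its AcH3 mark. Its strongest region had 42 fragments in siControl and 27 in siME1, or 23.8 and 11.7 times background, a ratio of 0.492 (0.292 to 0.817). The siRNA acts on the transcript, which was not measured, so this value does not check the knockdown. Me2, the mitochondrial malic enzyme, had 13.0 and 6.08, a ratio of 0.466 (0.222 to 0.945). Which end of Me2 is its start was not known here. Me3, the other mitochondrial malic enzyme, was marked at 7.37 in siControl and lost in siME1. Over Me3 and its 10 kb flanks, regions nevertheless numbered 1 in siControl and 6 in siME1, all 6 gained, with a highest pileup of 7.37 and 8.68. Its mark at the start was too weak to be called in siControl at the stricter score limit.

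Genes that lost the mark from the highest siControl score were Ccser2, Gfod2, Leng1, Ttc1, Plcb3, Acp1, Sh3yl1, Abcf3, Tmem161a and Slc25a22. Their siControl pileups ran from 21.6 at Slc25a22, the mitochondrial glutamate carrier, to 28.9 at Gfod2, or 38 to 51 fragments. Plcb3 encodes a phospholipase C, and Acp1 and Sh3yl1 share a region between their starts. With a window of 5 kb in place of 1 kb, Plcb3 was no longer called lost. AcH2B in siControl was listed at 0 of these 10 genes. Which end of Tmem161a is its start was not known here.

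Genes that gained a mark with the highest siME1 score were Tnfsf13, Ndrg1, Fam180a, Prss22, Nupr1, Gsap, Kcnv2, Ccl9, Lctl and Tns4. Their siME1 pileups ran from 9.99 at Tns4 to 15.6 at Tnfsf13, which encodes the cytokine APRIL. All but Gsap carried AcH2B in siControl. At Ndrg1, a stress-responsive gene, 6 regions were listed in the gene and its 10 kb flanks in siME1 and 0 in siControl. Nupr1 encodes a stress-induced chromatin protein and Ccl9 a chemokine, with 12.2 and 12.6 in siME1. With a window of 5 kb, Tnfsf13, Prss22, Nupr1, Gsap and Ccl9 were no longer called gained, and with 500 bp Gsap and Kcnv2 were not. Which end is the start was not known here for Ndrg1, Prss22, Kcnv2 and Tns4.

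Among kept genes with a score above the upper quartile in either library, the lowest ratios were at Wdr70, Cars, Nsd3, Plpp5, Xkr6, Ryk, Rpl32, Nars, Siah2 and Rsad1. Wdr70 had 29.5 in siControl and 6.95 in siME1, a ratio of 0.236. At Cars, the cysteinyl-tRNA synthetase gene, the values were 23.8 and 5.64, and at Nars, the asparaginyl one, 23.8 and 6.51. Ryk, a Wnt receptor gene, had 30.6 and 7.81. Nsd3, an H3 lysine methyltransferase gene, shares its region with Plpp5, at 34.6 and 8.68. That region lies at the end of Nsd3 next to Plpp5. Which end is the start was not known here for Cars, Nsd3, Plpp5, Xkr6, Rpl32, Nars and Siah2, so their regions may lie away from the start. The highest pileup in Nsd3 and its 10 kb flanks was 35.7 in siControl and 30.4 in siME1, so Nsd3 as a whole was not among the strongest falls. These 10 genes were picked by their ratio, so the low values describe the choice.

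By the same rule the highest ratios were at Jade2, Ddx6, Aebp1, Cbr2, Faim2, Krt80, Klhl33, Parp3, Rrp9 and Dph3. The scores of all 10 were higher in siME1 than in siControl, so they met the limit through the library in which they were picked to be high. Aebp1, a fibroblast matrix and preadipocyte gene, had 7.37 in siControl and 16.5 in siME1, at its start, a ratio of 2.24. Over Aebp1 and its 10 kb flanks the highest pileup was 17.6 and 16.9, so the gene as a whole was not higher. Faim2 had 12.5 and 22.1, a ratio of 1.77, and its highest pileup with flanks was 13.6 and 22.1. At Jade2 and Ddx6 the siME1 region also covered a stronger siControl region nearby. The highest siControl pileup in the gene and its 10 kb flanks was 30.1 at Jade2 and 41.4 at Ddx6, against 21.7 and 31.3 in siME1, so neither gene as a whole was higher. Which end is the start was not known here for Jade2, Ddx6, Faim2 and Krt80.

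The widest narrowed regions lay at Zfp516, Elovl6, Srsf2, Mfsd11, Snx5, Mgme1, Hnrnpu, Fgf10, Pdgfa and Ephb3. Srsf2 and Mfsd11 share a region, as do Snx5 and Mgme1. At Elovl6, which elongates fatty acids, the region was 3921 bp wide in siControl, siME1 regions covered 48.7% of it and the pileup was 21.0 and 9.99. Zfp516, a transcription factor gene of thermogenic fat, went from 4181 to 2061 bp, and its pileup was 15.9 and 12.2. Which end of Zfp516 is its start was not known here. Fgf10 and Pdgfa, growth factor genes, had ratios of 0.652 (0.357 to 1.18) and 0.449 (0.231 to 0.844).

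The same measures were taken over 23 lists of genes, with 450 of 452 symbols matched. They held 30 lost and 2 gained genes. In the 17 lists with 10 or more kept members, the median ratio ran from 0.482 to 0.701, against 0.560 over all kept genes. Of their 280 kept members, 271 were below 1 and 9 above it. For 151 the interval lay below 1 and for 0 above it. The background for a lost member is 13.4% of marked genes, and for a lower one 74.9% of kept genes. Most kept members named below are those with the largest changes of their list, so their values show its extremes.

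**Figure D5:**
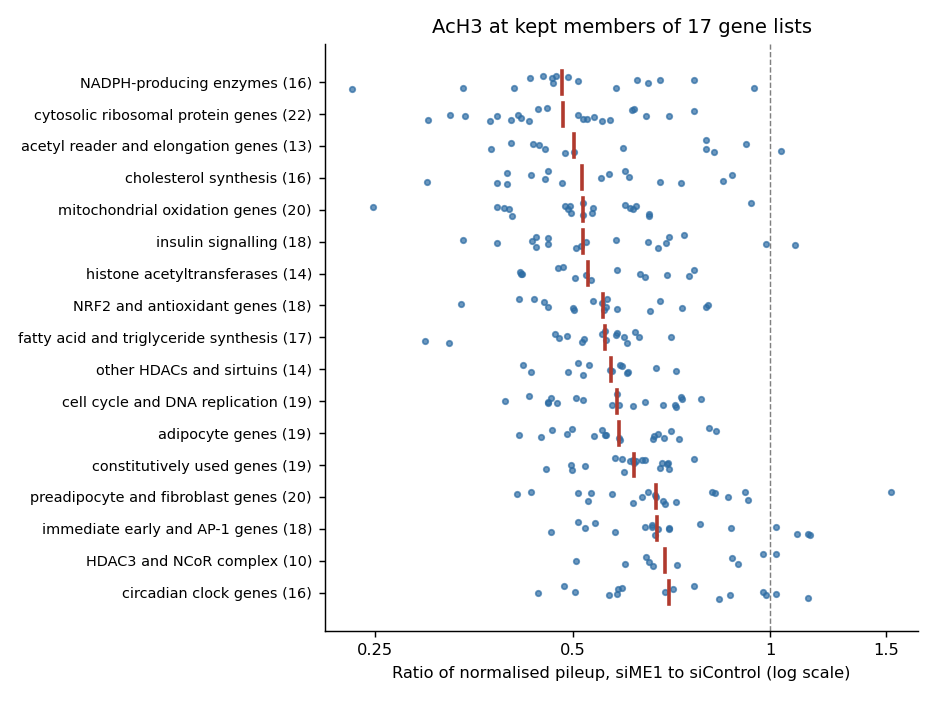
Ratio of normalised AcH3 pileup, siME1 to siControl (horizontal axis, log scale), at each kept member (points) of the 17 gene lists with 10 or more kept members (rows, number of kept members in parentheses), with the list median as a bar. List medians run from 0.482 for NADPH-producing enzymes to 0.701 for circadian clock genes, and most points lie below 1.

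Genes that make NADPH were 19 of 22 marked in siControl, with 16 kept, 3 lost and 13 lower. The lost members were Me3, Taldo1 of the pentose phosphate pathway (10.8 in siControl) and Aldh1l2 of mitochondrial folate metabolism (15.3). Mthfd2, a mitochondrial folate enzyme, had 22.7 and 5.21, a ratio of 0.230 (0.110 to 0.446). Pgd, the NADPH-making step after G6pdx, had 15.3 and 5.21, a ratio of 0.340 (0.157 to 0.694). G6pdx, the entry enzyme of the pathway, had 13.0 and 9.99, a ratio of 0.765 (0.410 to 1.43). Nnt, the mitochondrial transhydrogenase, was nearest to 1, at 0.945 (0.587 to 1.53).

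The enzymes that spend NADPH on lipid fell into lists with different losses. Among 22 genes of fatty acid and triglyceride synthesis, 17 were marked and kept, and 16 were lower. Fads1, a desaturase, had 33.5 and 9.99, a ratio of 0.298 (0.176 to 0.490). Elovl5 had 14.7 and 4.77, and Acly, which makes cytosolic acetyl-CoA from citrate, had 17.6 and 8.25. Of 22 cholesterol synthesis genes, 20 were marked, 16 kept, 4 lost and 12 lower. Nsdhl, Hsd17b7 and Ebp, all enzymes of the late pathway after squalene, were among the 4 lost, from 8.51, 9.64 and 13.0. The remaining lost member is not named here, so the lost genes are not shown to belong to the late pathway alone. Sqle, squalene epoxidase, had 28.9 and 8.68, a ratio of 0.300 (0.169 to 0.512). Ebp was not called lost with a 500 bp window.

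Of the adipocyte genes, 19 of 22 kept the mark and 13 were lower. Klf5, an early adipogenic transcription factor gene, was lost from 11.3, and no siME1 region lay within 10 kb of it. Ebf2, of thermogenic fat, and Nr1h3, the LXR alpha receptor gene, were lost from 7.37 each. Pparg, the master regulator of fat cell formation, had 13.6 and 6.08, a ratio of 0.447 (0.214 to 0.899). Over Pparg and its 10 kb flanks, regions nevertheless numbered 2 in siControl and 8 in siME1, of which 6 were gained. Adipor2, an adiponectin receptor gene, had 21.0 and 8.68, Fabp5 15.9 and 7.38, and Fasn 26.7 and 13.0. Rxra, the partner of Pparg, had a ratio of 0.665 (0.424 to 1.04), with 11 regions in siControl and 20 in siME1.

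Of the 20 marked preadipocyte and fibroblast genes, all 20 were kept and 9 were lower. Zfp423, which commits cells to the fat lineage, had 27.2 and 11.7, a ratio of 0.431 (0.258 to 0.704). Gata2, which holds preadipocytes undifferentiated, had 23.3 and 9.55. Dcn, the matrix proteoglycan decorin, was higher, at 6.24 and 9.55 with a ratio of 1.53 (0.711 to 3.50), an interval that includes 1. Lum, its relative lumican, gained a mark of 6.51, and it did not pass the stricter score limit.

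Antioxidant genes, which use NADPH to renew glutathione and thioredoxin, were marked at all 22 members in siControl, with 18 kept, 4 lost and 14 lower. Gclc, which limits glutathione synthesis, Prdx3 and Prdx6, both peroxiredoxins, and Slc7a11, the cystine importer, were lost from 8.51, 15.3, 11.3 and 7.94. Txnrd1, thioredoxin reductase, had 19.3 and 6.51, a ratio of 0.338 (0.171 to 0.637).

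All 10 members of the HDAC3 and NCoR list kept their mark, and 5 were lower. Hdac3 had 17.0 and 11.3, a ratio of 0.663 (0.377 to 1.16), and its region was narrowed from 1431 bp to 46.3% covered. Which end of Hdac3 is its start was not known here. Ncor1 had 38.6 and 25.2, and Cops2, the member with the lowest ratio, 35.2 and 17.8. Nr1d1 and Nr1d2, the REV-ERB receptors that recruit the complex, had ratios of 1.02 (0.602 to 1.75) and 0.974 (0.537 to 1.79).

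Of 15 acetyltransferase genes, all marked, 14 were kept, 11 were lower and Kat2a, which acetylates H3, was lost from 16.4. Kat6a had 32.3 and 13.5. Of 17 other deacetylase and sirtuin genes, 15 were marked and 12 were lower. Sirt5 was lost from 7.94, and Sirt1 and Sirt7 had ratios of 0.431 (0.228 to 0.790) and 0.420 (0.218 to 0.782). Among 14 genes of acetyl readers and elongation, Smarca2 was lost from 12.5 and 8 were lower. Cdk9, the elongation kinase, had 28.9 and 10.9. Smarca2 was no longer called lost with a 500 bp or a 5 kb window.

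Cell cycle genes were marked at 24 of 25 members, with 5 lost and 13 lower. The lost members were the cyclin genes Ccnd2, Ccne1, Ccne2 and Ccnb2 and the replication helicase gene Mcm3, from 6.24, 13.0, 7.94, 7.94 and 7.94. Ccne1 and Ccnd2 were no longer called lost with a 5 kb window. Ccnd1, cyclin D1, had 28.4 and 12.2. Immediate early genes were 18 of 20 kept and 9 lower. Fosb and Atf3 were each lost from 6.81. Jund, Nr4a1, Fosl2 and Egr1 had ratios of 1.14, 1.15, 1.10 and 1.02, each with an interval that included 1.

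Of 20 clock genes, 16 of 17 marked genes were kept and 7 were lower. Rora, a nuclear receptor of the clock, was lost from 7.37, and 1 clock gene, not named here, gained a mark. Per1 had a ratio of 1.14 (0.705 to 1.85), and Csnk1e, the kinase of the PER proteins, had 29.5 and 13.0. Insulin signalling genes were 18 of 19 kept and 12 lower. Tbc1d4, of insulin-stimulated glucose uptake, was lost from 10.8, and Pik3r1, the regulatory subunit of PI3K, had 15.9 and 17.4. Regions around Mtor numbered 3 in siControl and 11 in siME1, while the mark at its start had 10.8 and 5.64.

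Among lists of genes used in most cells, the counts lay on either side of the background. Of 20 marked mitochondrial oxidation genes, 19 were lower, and Idh3a of the citric acid cycle had 19.3 and 4.77, a ratio of 0.248. Of 22 cytosolic ribosomal protein genes, 20 were lower and none was lost, with Rpl10 at 18.7 and 5.64. Of 19 marked constitutively used genes, 13 were lower, and the median ratio was 0.619 against 0.560 over all kept genes, with Gapdh at 18.2 and 8.25.

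Among the lists of other tissues, Apoa2, Tnni2, Spi1 and Flt1 were lost from 13.0, 5.10, 13.0 and 11.9, and Actn3, Cd14 and Comp kept their mark. Actn3 did so by overlap, at 18.7 and 12.2, with no siME1 summit within 1 kb of it. Runx2, a bone transcription factor gene with no mark at its start in either library, had 7 regions in and around it in siControl and 24 in siME1. Over the 15 bone and cartilage genes such regions numbered 19 and 45, against 29891 and 35514 over all protein-coding genes.

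Gained regions gathered in some genes, which were picked after their values were seen. Rad51b, a recombination gene, and its 10 kb flanks held 87 gained regions, with 17 regions in siControl and 98 in siME1, while its start had 9.08 and 8.25. Dgki had 52 gained regions, Gas7 46, Lrmda 44, Smg6 42 and Syn3 42. Dgki, Gas7, Lrmda and Syn3 carried no mark at their start in either library. Gene length was not taken into account in these counts. Efemp1, a matrix gene of a smaller span, held 32 gained regions and gained a mark at its start of 10.9. Of all 21896 genes, 4028 (18.4%) had a gained region within the gene or 10 kb of it. Of the 11217 genes with no start marked in either library, 1166 had one, a smaller share than over all genes.

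The promoters of the gene classes differed in composition. Promoters here are the RefSeq window from 250 bases before to 50 after the start, which 82.3% of kept and lower genes, 81.4% of other kept genes and 80.5% of lost genes had. The median ratio of observed to expected CG dinucleotides was 0.834 for kept and lower genes, 0.769 for other kept genes and 0.755 for lost genes. Over all genes it was 0.593, below each of these. A ratio above 0.6 was found in 4859 of 5595 promoters of kept and lower genes (86.8%). For other kept genes this was 1388 of 1851, and for lost genes 825 of 1125 (73.3%). Over all genes the share was 49.5%, and for genes unmarked in both libraries 17.8%. For gained genes the comparison is void, since 61.1% had a promoter sequence. The letters CCAAT, on either strand, stood in 47.5% of lost promoters and 37.5% of kept and lower ones, against 38.6% of all. The letters CCGGAAG stood in 17.6%, 22.8% and 12.2%, and TATAAA in 6.84%, 5.00% and 13.2%. A match of letters is a description and not a binding site.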

How the data were processed

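Each library came as a deposited table of peaks without a header, in 10 columns, 1 table per library. The submitters' processing notes name MACS2, BWA, SAMtools, deepTools and bedtools (versions not given in the sources used here). Columns were read from their values. The deposited pileup is a coverage signal in fragments scaled per library. The deposited scores are a −log10 p-value and a −log10 q-value against local background. The deposited fold is a ratio: pileup and local background, each plus 1. The notes name the build mm8, but scaffold names and the last region of chromosome 1, ending at base 195321056, belong to GRCm38, on which coordinates were read, counted from 1.

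Rows with the same chromosome, start and end were joined to 1 region. The genome background was the floor of the local backgrounds recovered from pileup and fold, and a fragment was worth 1.0 pileup in siControl and 0.9155 in siME1. Gene starts came from RefSeq promoter windows on GRCm38.p6 for 17491 genes. For 4405 genes without one, either gene end was used, so a region at the far end can count as a mark. A gene was kept if its siControl regions overlapped a siME1 region or a siME1 summit lay within 1 kb of the start. Wilson and exact 95% intervals cover counting error only, and PCR duplicates could not be checked. Total read numbers are unknown, so depth enters only through the background.

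The members and the gene lists were chosen with earlier results of these data known. Named genes, outside regions with local background over 3 times the genome background, are the 10 lost and 10 gained genes of highest score, the 10 kept genes with the lowest and the 10 with the highest ratio among the higher scores (above the upper quartile), the 10 widest narrowed, every lost or gained list member, up to 4 kept members per list with the largest change, and Me1, Me2, Me3 and Hdac3. Some genes that met these rules are not named in the text, among them a lost cholesterol synthesis gene and a gained clock gene. Other genes were named after their values were seen. Alternatives were a −log10 q limit of 5, equal numbers of regions, other overlap rules, windows and scalings, and overlapping regions joined to loci. The code was tested on simulated regions. Python 3.11.15, pandas 2.3.3, numpy 2.4.6 and scipy 1.17.1 were used.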

Additional observations from a re-analysis of the deposited data

How the results depend on the processing

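With 1 library a side, nothing here measures the spread between cultures, and weak regions near either list's limit set most counts of lost and gained regions. No paired analysis was possible because each group holds 1 library and the comparison has no test.

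The lists differ in length, and cutting the siME1 list to the size of the siControl list moved the balance. With equal numbers of regions, 39.3% of siControl regions were lost and 37.1% of siME1 regions gained. With −log10 q of 5 or more these were 35.1% and 38.7%, and without high local background 29.6% and 51.4%. Counting a gap of up to 500 bp as shared gave 19.7% and 44.8%, and asking for a reciprocal overlap of 50% gave 60.8% and 75.2%. At gene starts the lost share was 33.5% at the stricter limit, 32.7% with equal numbers, 15.3% with gaps allowed and 52.0% with reciprocal overlap. Between genes the gained share was 74.0%, 66.9%, 70.9% and 89.8% in the same order. The narrowed share was 52.0% with 75% of bases as the limit, 3.62% with 25% and 19.8% with equal numbers.

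Undivided deposited pileups gave median ratios of 0.836 over all shared regions, 0.694 at starts and 1.37 between genes, with 29.1% lower and 16.3% higher. The deposited fold gave 0.750 and 0.619 at starts, with 39.8% lower and 10.7% higher. Centring on the median of shared regions gave 0.831 at starts and 1.64 between genes, with 13.6% lower and 24.8% higher, so more regions were then higher than lower. At starts, 68.4% were lower in the main setting, 44.4% undivided, 58.4% with the deposited fold and 21.1% when centred. The shares higher there were 1.26%, 2.51%, 2.35% and 4.93% in the same order. Over all shared regions, a limit of 2 times in place of 1.5 left 19.1% lower and 2.84% higher. Joining overlapping regions to loci, added after seeing the data, gave 0.670 over all, 0.574 at starts and 1.08 between genes, with 49.9% lower and 6.06% higher. The median ratio at starts stayed below 1 and that between genes above 1 under each of these scalings.

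Lost genes numbered 2664 at the stricter limit and 2371 with equal numbers, against 1398. All 1398 were among the 2371, which was fixed in advance, because equal numbers removed siME1 regions only. Gained genes numbered 123 and 95 in the same settings and 323 with a 5 kb window, against 190. List members lost were 58 at the stricter limit and 52 with equal numbers, against 30, and 5 were gained with a 5 kb window, against 2. Lost regions with AcH2B in siControl were 12.0% with equal numbers, 6.95% with gaps allowed and 25.8% with reciprocal overlap. Gained regions with it were 51.5%, 36.6% and 35.9% there and 63.7% at the stricter limit. The alternatives for place, AcH2B and lists were also added after seeing the data. Of 568 further values for single genes and places, 44 moved beyond their interval or lost their call and none crossed 1 from a called value. For undivided pileups and centring this was fixed in advance. Each multiplies all ratios by the same constant, too small to carry a called value across 1. Only the deposited fold could have crossed. Among the 568 are 40 lost calls with equal numbers of regions, which could not change because only siME1 regions were removed.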
